A study of Homo sapiens with 4 samples.

Results

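The genes described here are 10 genes of the cardiac and slow skeletal muscle sarcomere, MYH6, MYH7, MYH7B, MYL3, MYL4, TNNT1, TNNT2, TNNI3, ACTC1 and TTN, followed across K562 cells with and without the JAZF1-SUZ12 fusion. They were chosen by symbol, with the difference of these libraries in view, and all 10 were found among the 35606 genes of the count table. K562 is an established leukaemia line that transcribes many red-cell genes. The fusion, known from uterine stromal tumours, links JAZF1 sequence to SUZ12, a core subunit of the Polycomb repressive complex that methylates histone H3. There were 2 libraries from cells labelled JAZF1-SUZ12 and 2 from cells labelled mock, numbered 1 and 2 in each group. How the fusion was introduced, what the mock cells carry and whether the libraries came from separate cultures are not given in the sources used here, so errors and p-values measure only the spread between these libraries. The tissue label is uterus, whereas the cell line is K562.

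The sarcomere is the contractile unit of striated muscle. Thick filaments of myosin heavy chains with their light chains slide along thin filaments of actin, and the giant protein titin spans the filament array as a spring and ruler. The troponin complex, made of a calcium-binding subunit C, an inhibitory subunit I and a tropomyosin-binding subunit T, sits on the thin filament and couples calcium to contraction. Heart, slow and fast muscle use different genes for most of these parts, and in blood cells contraction rests on non-muscle myosin and actin.

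The libraries held between 17260936 and 24423028 counts, so that a count of 1 was worth between 0.0409 and 0.0579 CPM (counts divided by the library total and multiplied by 1e+06). Among 15 erythroid genes, all could be tested, 6 rose and none fell, and the summed level was 12883 to 13177 CPM in mock and 14905 to 15087 CPM in JAZF1-SUZ12 libraries. The embryonic globin HBZ, the haem synthesis enzyme ALAS2 and the anion exchanger SLC4A1 rose by 0.86, 0.68 and 1.18 on the log2 scale (adjusted p = 2.47e-09, 5.74e-07 and 1.30e-05 by edgeR), and the part of this in the values below was not tested. As a check of the labels, mean JAZF1 was 0.927 CPM (SD 0.481, n = 2) without the fusion and 31.6 CPM (SD 2.35, n = 2) with it. Across all genes, 3643 of 14750 genes tested, or 24.7%, passed an adjusted p of 0.05 (edgeR quasi-likelihood test, Benjamini-Hochberg adjustment), 13.3% being higher and 11.4% lower. Because the 10 sarcomere genes were chosen with this comparison known, their differences are given as descriptions with no test.

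Levels of the 10 genes in mock cells spanned from about the level of abundant genes to a few counts. Per kilobase of the longest coding transcript, TNNT1, the slow skeletal troponin T, was the highest at 160 ± 3.81 CPM per kb in mock (SD, n = 2). It was followed by MYL4, the atrial and embryonic essential light chain, at 131 ± 4.75 CPM per kb and by TNNI3, the cardiac troponin I, at 71.0 ± 2.21 CPM per kb (SD, n = 2 each). These 3 genes stood above 97.6%, 96.8% and 93.3% of the 14690 tested genes with a transcript length. The level of TNNT1 per kb in mock lay near that of the ubiquitous tropomyosin TPM3, at 178 ± 3.32 CPM per kb (SD, n = 2).

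The other members were far lower in mock cells. On the same scale per length in mock, the ventricular and slow light chain MYL3 was at 0.921 ± 0.141, the slow myosin heavy chain MYH7B at 0.590 ± 0.0314 and TTN, which encodes titin, at 0.458 ± 0.0262 CPM per kb (SD, n = 2 each). TNNT2, the cardiac troponin T, was at 0.162 ± 0.0208, ACTC1, the cardiac alpha-actin, at 0.0839 ± 0.0251, MYH6 at 0.0725 ± 0.00931 and MYH7 at 0.0239 ± 0.0230 CPM per kb (SD, n = 2 each). The 2 mock libraries overlapped between ACTC1 and MYH6, so these neighbours in the order did not differ beyond their spread. In JAZF1-SUZ12 libraries MYH6 was at 1.63 ± 0.148 CPM per kb, beside MYL3 at 1.52 ± 0.535 (SD, n = 2 each). There TNNT1, at 145 ± 7.57, and MYL4, at 147 ± 0.498 CPM per kb, also did not differ beyond their spread (SD, n = 2 each). These levels divide by the longest coding transcript, which for TTN is 109.224 kb.

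**Figure D1:**
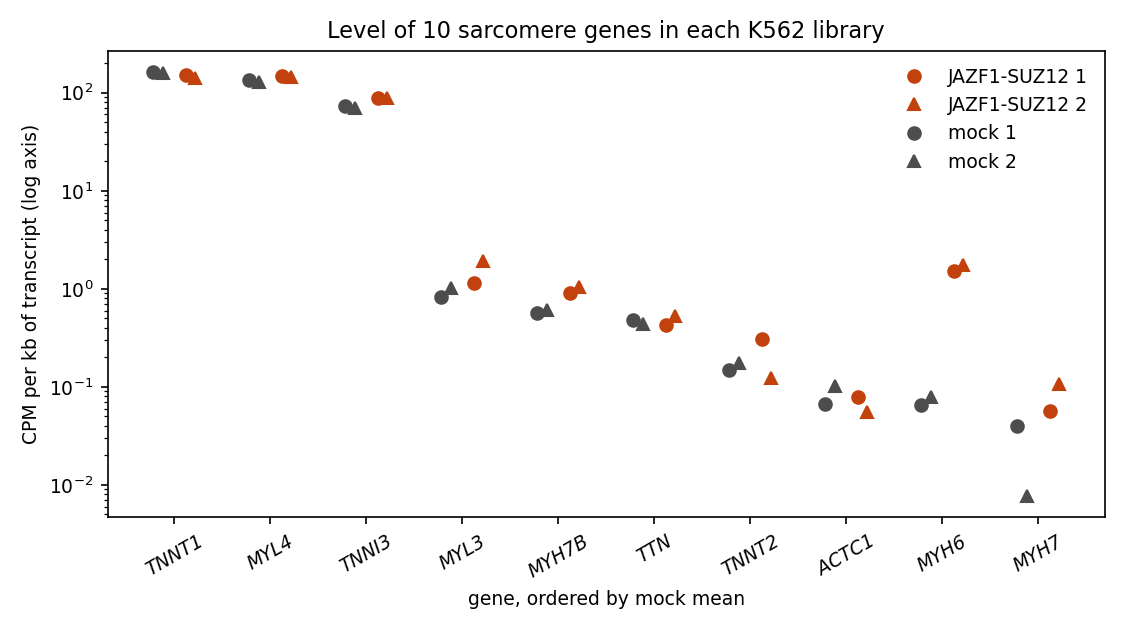
Level of each of the 10 genes in each library, in CPM per kb of the longest coding transcript on a log axis, with genes ordered by their mock mean. TNNT1, MYL4 and TNNI3 lie at or above 70 CPM per kb in mock on average, and MYH6 stands at 0.0725 in mock and 1.63 CPM per kb in JAZF1-SUZ12 libraries.

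Among the myosin heavy chains, MYH6 differed most between the groups. MYH6 encodes alpha-myosin, the fast cardiac heavy chain of the atria, and its neighbour MYH7 encodes beta-myosin, the slow heavy chain of the ventricle and of slow skeletal fibres. MYH6 (ENSG00000197616; GRCh38 chromosome 14, 23381990 to 23408277, minus strand) had counts of 8 and 10 in mock, against 156 and 251 with the fusion. This was 0.391 and 0.470 CPM in mock against 9.04 and 10.3 CPM in JAZF1-SUZ12 libraries. Both JAZF1-SUZ12 libraries lay far above both mock libraries, and the libraries of a group were close to each other. The fitted log2 fold change was 4.45 ± 0.28 (SE), or 21.8-fold. It was 3.45 when 0.5 CPM was added to each group mean, and between 4.32 and 4.58 when 1 library was left out.

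The 250 bases before the RefSeq start of MYH6 (GRCh38.p14, chr14:23408274-23408523, minus strand) are shown because no other member differed as much. Capitals mark letters of the motifs searched on both strands.
MYH6: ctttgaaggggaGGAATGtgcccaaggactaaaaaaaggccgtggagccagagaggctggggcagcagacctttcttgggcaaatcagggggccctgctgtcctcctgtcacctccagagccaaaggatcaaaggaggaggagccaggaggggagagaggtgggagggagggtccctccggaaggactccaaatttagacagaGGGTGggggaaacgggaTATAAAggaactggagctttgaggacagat
The window held TATAAA from 25 to 30 bases before the start, a sequence found in 10.7% of 35116 windows of this length before RefSeq starts. It also held CATTCC (11.9% of all windows) and CACCC (54.7%), neither of which overlapped another motif there. AGATAA (9.17% of all windows) and the motifs known as the MEF2 and CArG boxes (2.80% and 1.16%) were not in it. The window had 3 CpG dinucleotides, and 22.9% of all windows had fewer.

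MYH7 (ENSG00000092054; chromosome 14, 23412738 to 23435718, minus strand) lies 4460 bases from MYH6 and had 5 and 1 counts in mock and 6 and 16 in JAZF1-SUZ12 libraries. The groups did not overlap in CPM, but the lowest JAZF1-SUZ12 library, at 0.348 CPM, was close to the highest mock library, at 0.245 CPM. The log2 fold change of MYH7 was 1.75 ± 0.98 (SE). It was 1.02 without mock replicate 2, as against 3.26 when mock replicate 1 was left out. With 0.5 CPM added to each group mean it was 0.63, so its size rested on the prior as well as on the mock library. MYH7 had too few counts to enter the test.

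MYH6 and MYH7 are near-identical over part of their length. Of the 6459 distinct 31-base stretches in MYH6 transcripts, 22.4% also occur in MYH7 transcripts, and 23.8% of the 6057 in MYH7 occur in MYH6. The estimated counts of MYH6 and MYH7 were whole in the first mock library only, at 8 and 5. They were 9.901477 and 1.098523 in the second mock library. In the JAZF1-SUZ12 libraries they were 155.6485 and 6.351523 in the first and 251.4795 and 15.52049 in the second. Their sums were whole numbers within 0.001 in all 4 libraries, namely 13 and 11 in mock and 162 and 267 in JAZF1-SUZ12 libraries. The sum of both genes was therefore used as a value that does not depend on how reads were divided between them. The summed level averaged 0.576 ± 0.0844 CPM in mock, against 10.2 ± 1.09 CPM with the fusion (SD, n = 2 each). The log2 ratio was 4.11 ± 0.26 (SE), or 17.3-fold.

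MYH6 took most of the sum in the JAZF1-SUZ12 libraries, with 96.3% (95% exact Clopper-Pearson interval 92.1% to 98.6%) in the first and 94.0% (90.5% to 96.5%) in the second. In mock the share was 61.5% (31.6% to 86.1%) and 90.9% (58.7% to 99.8%). The mock intervals are wide because so few counts were found, and the share of the second mock library was within the interval of the second JAZF1-SUZ12 library. These intervals cover counting error only and do not include the uncertainty of the division.

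**Figure D2:**
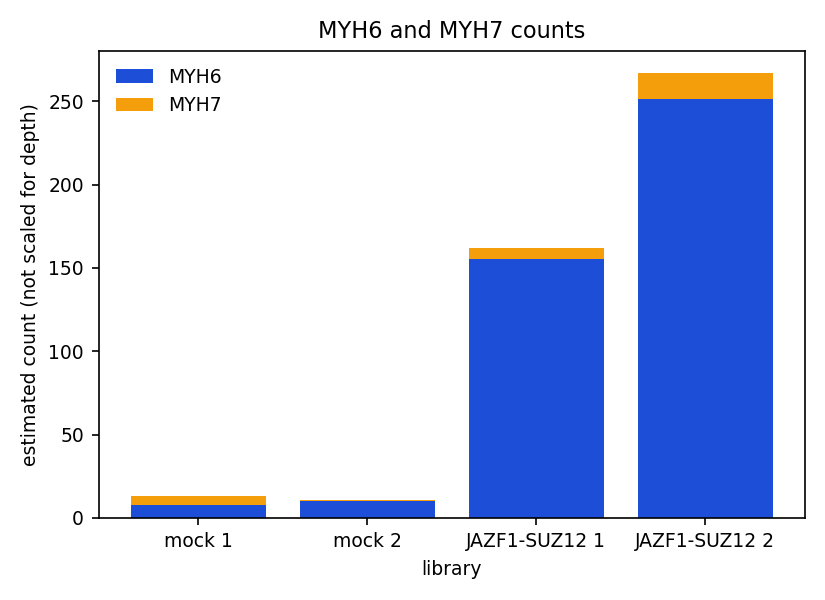
Estimated counts of MYH6 and MYH7 in each library, stacked and not scaled for depth. The sums are 13 and 11 in mock and 162 and 267 in JAZF1-SUZ12 libraries, and MYH6 forms most of the larger sums.

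MYH7B (ENSG00000078814; chromosome 20, 34975403 to 35002437, plus strand) encodes an ancient slow-type heavy chain and is host to a microRNA of heart and slow muscle. It had 73 and 82 counts in mock and 99 and 160 in JAZF1-SUZ12 libraries, or 3.57 and 3.85 CPM against 5.74 and 6.55 CPM. Both JAZF1-SUZ12 libraries were above both mock libraries. The log2 fold change was 0.71 ± 0.21 (SE), and it ranged from 0.62 to 0.78 when 1 library was left out. TRPC4AP overlaps MYH7B on the opposite strand and was not called (adjusted p = 0.123 by edgeR). Its counts were 2362 and 2489 in mock and 1847 and 2703 in JAZF1-SUZ12 libraries. No gene shared more than 0.887% of the 31-base stretches of MYH7B, on either strand.

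The essential light chains clasp the lever arm of the myosin head. MYL4 (ENSG00000198336; chromosome 17, 47200446 to 47223679, plus strand) had 2491 and 2465 counts in mock and 2303 and 3243 in JAZF1-SUZ12 libraries, or 122 and 116 CPM against 133.4 and 132.8 CPM. The groups did not overlap, and the log2 fold change was 0.14 ± 0.05 (SE). It was 0.096 without mock replicate 2, as against 0.17 when mock replicate 1 was left out. MYL3 (ENSG00000160808; chromosome 3, 46857872 to 46882169, minus strand) had 17 and 22 counts in mock and 20 and 47 in JAZF1-SUZ12 libraries. In CPM this was 0.832 and 1.03 against 1.16 and 1.92. The lower JAZF1-SUZ12 library lay just above the higher mock library, and the second JAZF1-SUZ12 library stood apart from the other 3. The log2 fold change of MYL3 was 0.72 ± 0.44 (SE), and it was 0.30 without JAZF1-SUZ12 replicate 2.

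Of the troponin genes, TNNI3 was higher and its neighbour TNNT1 was lower in JAZF1-SUZ12 libraries. TNNI3 (ENSG00000129991; chromosome 19, 55151767 to 55157773, minus strand) encodes the inhibitory subunit of the adult heart. It had 1246 and 1242 counts in mock and 1285 and 1816 in JAZF1-SUZ12 libraries, or 60.9 and 58.3 CPM against 74.4 CPM in both. The groups were well separated, with a log2 fold change of 0.30 ± 0.06 (SE). Of the 31-base stretches of TNNI3, 21.9% are shared with AC010327.1, a gene model that overlaps it on the same strand and had 4 and 0 counts in mock and 0 and 20 in JAZF1-SUZ12 libraries.

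TNNT1 (ENSG00000105048; chromosome 19, 55132794 to 55149354, minus strand) lies 2412 bases from TNNI3. It had 3875 and 3903 counts in mock and 3022 and 3972 in JAZF1-SUZ12 libraries. In CPM this was 190 and 183 in mock and 175 and 163 in JAZF1-SUZ12 libraries, so that the groups did not overlap although the JAZF1-SUZ12 libraries spread more widely. The log2 fold change was -0.17 ± 0.05 (SE), and it was -0.099 without JAZF1-SUZ12 replicate 2, as against -0.24 when JAZF1-SUZ12 replicate 1 was left out. DNAAF3, 887 bases beyond TNNI3, had a log2 fold change of -0.24 and was not called (adjusted p = 0.0529 by edgeR).

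TNNT2 (ENSG00000118194; chromosome 1, 201359008 to 201377762, minus strand) was near the limit of detection with 4 and 5 counts in mock and 7 and 4 in JAZF1-SUZ12 libraries. The groups overlapped, and the log2 fold change of 0.32 ± 1.16 (SE) turned to -0.42 without JAZF1-SUZ12 replicate 1. The calcium-binding partner of these subunits in heart and slow muscle, TNNC1, had 0 and 1 counts in mock and 1 and 5 in JAZF1-SUZ12 libraries. Its fast counterpart TNNC2 had 0 counts in both mock libraries and 0 and 1 in JAZF1-SUZ12 libraries. TNNI1, the slow skeletal inhibitory subunit, had 1 and 0 counts in mock and 6 and 4 in JAZF1-SUZ12 libraries. Troponin C transcripts were thus at or under the floor of 3 counts in 3 of the 4 libraries, beside abundant TNNI3 and TNNT1.

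Windows of 250 bases before the RefSeq starts of the troponin members are shown to set the abundant TNNT1 (GRCh38.p14, chr19:55149207-55149456, minus strand) and TNNI3 (chr19:55157733-55157982, minus strand) beside the scarce TNNT2 (chr1:201377681-201377930, minus strand). Capitals mark the same motifs as for MYH6.
TNNT1: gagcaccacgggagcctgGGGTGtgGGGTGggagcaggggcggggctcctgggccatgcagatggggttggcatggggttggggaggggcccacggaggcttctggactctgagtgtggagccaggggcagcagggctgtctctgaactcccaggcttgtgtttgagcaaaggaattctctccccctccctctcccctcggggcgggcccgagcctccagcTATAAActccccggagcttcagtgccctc
TNNI3: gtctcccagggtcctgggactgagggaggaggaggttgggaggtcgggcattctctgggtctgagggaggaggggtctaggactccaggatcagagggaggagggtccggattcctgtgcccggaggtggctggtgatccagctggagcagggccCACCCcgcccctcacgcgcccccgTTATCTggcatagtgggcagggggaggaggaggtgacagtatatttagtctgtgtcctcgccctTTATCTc
TNNT2: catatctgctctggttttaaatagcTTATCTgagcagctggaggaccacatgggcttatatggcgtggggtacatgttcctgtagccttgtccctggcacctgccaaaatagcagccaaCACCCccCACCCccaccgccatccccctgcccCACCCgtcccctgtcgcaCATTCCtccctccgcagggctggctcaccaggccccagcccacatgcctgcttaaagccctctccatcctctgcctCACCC
TNNT1 held TATAAA from 24 to 29 bases before the start, in nearly the same place as in MYH6, together with CACCC. TNNI3 had no TATAAA and held AGATAA on the opposite strand at 2 places, from 2 to 7 and from 66 to 71 bases before the start. The scarce TNNT2 also held AGATAA, from 220 to 225 bases before the start, with CATTCC and CACCC. Windows were found for 7 of the 10 genes, 10 windows in all, since MYL3 and ACTC1 have several starts. Of these, 3 held TATAAA and 9 held fewer CpG dinucleotides than the median window, which had 11. The MEF2 box was found in the TTN window only and the CArG box in 1 of the ACTC1 windows only, among the windows of these genes. A match of letters is a description and not evidence of binding.

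Titin and cardiac actin showed no separation between groups. TTN (ENSG00000155657; chromosome 2, 178525989 to 178830802, minus strand) had 1064 and 1022 counts in mock and 797 and 1421 in JAZF1-SUZ12 libraries, or 52.0 and 48.0 CPM against 46.2 and 58.2 CPM. The JAZF1-SUZ12 libraries enclosed the mock libraries. The log2 fold change of 0.049 ± 0.09 (SE) became -0.12 without JAZF1-SUZ12 replicate 2 and 0.18 with JAZF1-SUZ12 replicate 1 left out instead. It was -0.019 when mock replicate 2 was left out. TTN-AS1, transcribed across TTN on the opposite strand, holds 8.15% of the 31-base stretches of TTN and was not analysed here. ACTC1 (ENSG00000159251; chromosome 15, 34788095 to 34795726, minus strand) had 5 and 8 counts in mock and 5 in both JAZF1-SUZ12 libraries. Its groups overlapped, and its log2 fold change was -0.37 ± 1.05 (SE). It was -0.031 without mock replicate 2, as against -0.64 when mock replicate 1 was left out.

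Over the 10 genes, 6 were higher in both JAZF1-SUZ12 libraries than in both mock libraries, 1 was lower and 3 overlapped. Such separation was found for 61.0% of all genes tested, 33.8% with JAZF1-SUZ12 above and 27.2% with it below. Their median log2 fold change was 0.31, against 0.0032 over all genes tested, and 2 of them, MYH6 and MYH7, had a fitted fold of at least 2 upwards. Among all genes tested, 7.46% reached a 2-fold difference upwards and 0.563% downwards. MYH7, TNNT2 and ACTC1 are not among the genes tested behind these percentages, and MYH7 was under 2-fold with the prior of 0.5 CPM. Of the 7 with enough counts to be tested, 4 passed the threshold, 3 higher and 1 lower, against the 24.7% of all genes given above; since the genes were chosen on this comparison, nothing is read from that count. The authors' deposited table listed log2 values of 4.45 for MYH6, 1.76 for MYH7, 0.97 for MYH7B and 1.05 for MYL3. The authors' deposited table gave 0.091 for MYL4, 0.28 for TNNI3, -0.24 for TNNT1 and 0.29 for TTN. For the genes with few counts, the authors' deposited table gave 1.57 for TNNT2 and -1.03 for ACTC1, both with standard errors above 1.5. The settings behind the authors' deposited table are not given in the sources used here, and its values differ from those fitted from the counts for several members. Among these, the fitted values were 0.32 for TNNT2, 0.049 for TTN, -0.37 for ACTC1, 0.72 for MYL3 and 0.71 for MYH7B.

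**Figure D3:**
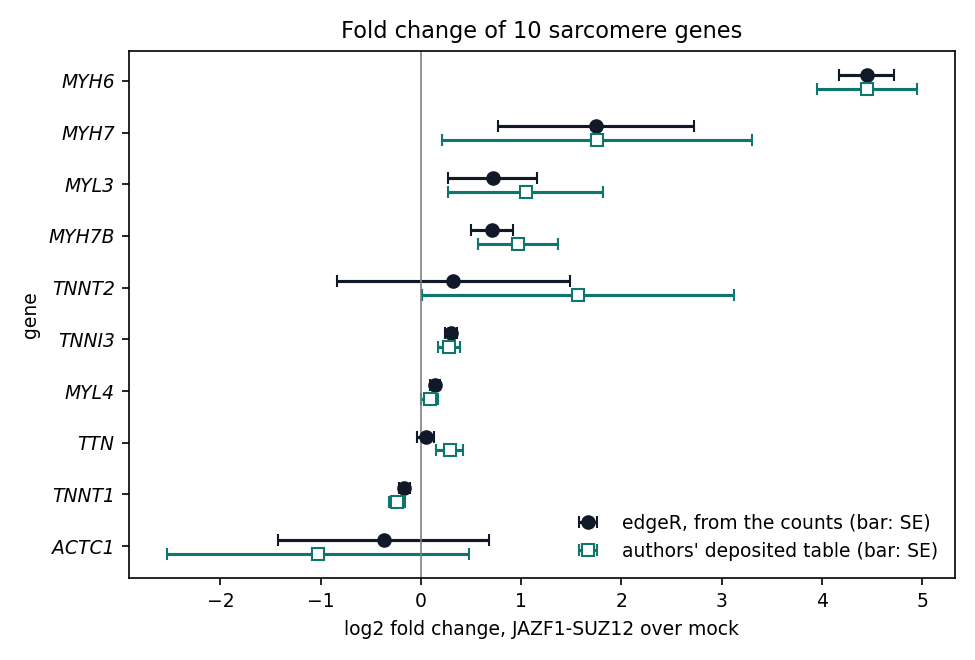
Log2 fold change of JAZF1-SUZ12 over mock for each of the 10 genes, from the edgeR fit (circles) and from the authors' deposited table (squares), with standard errors as bars. MYH6 stands at 4.45 in both, and the edgeR bars of TNNT2, TTN and ACTC1 span 0.

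Of 34 further genes of the striated sarcomere, 17 had fewer than 10 counts in every library, among them the fast heavy chains MYH1, MYH2 and MYH4, and 14 could be tested. Of these, 5 rose, none fell and 9 did not pass, with a median log2 fold change of 0.15. The share called was 35.7%, against 24.7% of all genes tested. OBSL1, a cytoskeletal adaptor, rose from 73.0 ± 1.46 to 108 ± 1.61 CPM (SD, n = 2 each), or 0.54 in log2 units (adjusted p = 3.07e-06 by edgeR). TMOD1, which caps the pointed ends of actin filaments in muscle and in red cells, rose from 149 ± 1.15 to 196 ± 0.0395 CPM (SD, n = 2 each; adjusted p = 3.52e-05 by edgeR). NEBL, the nebulin relative of the cardiac Z-disc, rose by 0.35 on the log2 scale (adjusted p = 0.0157 by edgeR). SPEG, a kinase of striated muscle named after its values were seen, rose by 0.28 (adjusted p = 0.0414 by edgeR). The value of SPEG was 0.15 when JAZF1-SUZ12 replicate 2 was left out. OBSL1 and TMOD1 alone passed with DESeq2, without JAZF1-SUZ12 replicate 2 and without mock replicate 1, the 3 fits in which the count was 2. SPEG was also not called without mock replicate 2 (adjusted p = 0.128 by edgeR). The most abundant genes that did not pass were TPM3 and TPM1, with log2 fold changes of -0.081 and 0.018 (adjusted p = 0.191 and 0.888 by edgeR). OBSL1 and TMOD1 also passed the threshold in the authors' deposited table, whereas NEBL and SPEG did not (adjusted p = 0.768 and 0.432 there).

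Among 35 genes of the Z-disc, the M-band and the costamere, which anchor and link sarcomeres, 21 were tested, 3 rose, 1 fell and 17 did not pass. The share called, 19.0%, was below the 24.7% of all genes tested. The median log2 fold change was 0.39. PDLIM3, an actinin-associated LIM protein, rose from 0.503 ± 0.0194 to 2.69 ± 0.451 CPM (SD, n = 2 each), or 2.38 in log2 units (adjusted p = 0.000608 by edgeR). DES, the muscle intermediate filament desmin, rose from 26.7 ± 0.0943 to 36.5 ± 0.326 CPM (SD, n = 2 each; adjusted p = 0.000661 by edgeR), and DMD, which encodes dystrophin, rose by 0.38 on the log2 scale (adjusted p = 0.00200 by edgeR). PDLIM5 fell from 108 ± 0.165 to 78.8 ± 1.17 CPM (SD, n = 2 each), or -0.47 in log2 units (adjusted p = 1.18e-05 by edgeR). FLNC and NEXN, the most abundant that did not pass, had log2 fold changes of -0.0094 and 0.36 (adjusted p = 0.903 and 0.126 by edgeR). PDLIM3 and PDLIM5 also passed the threshold in the authors' deposited table, whereas DES and DMD did not (adjusted p = 0.0627 and 0.161 there).

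Of 24 genes of calcium handling and muscle metabolism, 13 were tested, 2 rose, none fell and 11 did not pass, with a median log2 fold change of 0.24. The share called, 15.4%, was below the 24.7% of all genes tested. TRDN, the junctional protein triadin, rose from 2.97 ± 0.221 to 6.93 ± 1.03 CPM (SD, n = 2 each), or 1.20 in log2 units (adjusted p = 0.000676 by edgeR). EEF1A2, the translation elongation factor of muscle and neurons, rose by 0.46 (adjusted p = 3.11e-05 by edgeR). ATP2A2, the calcium pump of the sarcoplasmic and endoplasmic reticulum, and HRC, a calcium-binding protein of the same store, had log2 fold changes of -0.039 and 0.11 (adjusted p = 0.606 and 0.256 by edgeR). EEF1A2 also passed the threshold in the authors' deposited table, whereas TRDN did not (adjusted p = 0.112 there). RYR1 was not called by edgeR but passed in the authors' deposited table, as given below with the skeletal muscle markers.

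Among 14 chaperones, kinases and assembly factors of muscle, 9 were tested, 1 rose, 3 fell and 5 did not pass, and the median log2 fold change was -0.037. The share called was 44.4%, against 24.7% of all genes tested. FHOD3, the formin that builds actin filaments of the cardiac sarcomere, had 0 counts in both mock libraries and 18 and 29 in JAZF1-SUZ12 libraries. It was at least 7.75-fold higher against the floor of 3 counts per library (adjusted p = 0.000412 by edgeR). Its relative FHOD1 fell by 0.30 on the log2 scale (adjusted p = 0.00126 by edgeR), and the chaperones HSP90AA1 and HSP90AB1 fell by 0.18 and 0.12 (adjusted p = 0.00883 and 0.0243 by edgeR). Both chaperones missed the threshold without mock replicate 1 (adjusted p = 0.0753 and 0.0588 by edgeR), where 2 genes were called. UNC45A, a myosin chaperone, and SMYD2, a methyltransferase, had log2 fold changes of -0.047 and 0.11 (adjusted p = 0.573 and 0.329 by edgeR). FHOD3, FHOD1, HSP90AA1 and HSP90AB1 also passed an adjusted p of 0.05 in the authors' deposited table.

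Of 28 cardiac and myogenic transcription factors, 13 had fewer than 10 counts in every library. Of the 28, 14 were tested, 3 rose, 2 fell and 9 did not pass, with a median log2 fold change of 0.091. The share called was 35.7%, against 24.7% of all genes tested. NKX2-5, MYOD1, MYF5, MYF6 and MYOCD had 0 counts in every library, and GATA4 had 1 and 6 counts in mock and 7 and 13 in JAZF1-SUZ12 libraries. TEAD1, which binds the CATTCC motif of muscle genes, rose from 32.7 ± 0.808 to 44.1 ± 3.74 CPM (SD, n = 2 each), or 0.41 in log2 units (adjusted p = 0.000812 by edgeR). MEF2B rose from 10 and 2 counts to 42 and 38, or 2.73 in log2 units (adjusted p = 0.00339 by edgeR). This value was 1.97 without mock replicate 2, as against 4.28 when mock replicate 1 was left out. The far more abundant MEF2C fell from 132 ± 4.82 to 115 ± 0.220 CPM (SD, n = 2 each; adjusted p = 0.00617 by edgeR). PAX3 rose by 1.72 and MRTFA fell by 0.28 (adjusted p = 0.0394 and 0.0171 by edgeR). Neither passed with DESeq2 (adjusted p = 0.147 and 0.109), and PAX3 passed in none of the 4 fits that left out a library. The call of MRTFA was also lost without mock replicate 1, as was that of MEF2C (adjusted p = 0.0868 and 0.0539 by edgeR), which left 2 calls. SRF and MEF2A had log2 fold changes of -0.10 and 0.10 (adjusted p = 0.255 and 0.295 by edgeR). Of the called factors, MEF2B passed an adjusted p of 0.05 in the authors' deposited table, and TEAD1, MEF2C, PAX3 and MRTFA did not.

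**Figure D4:**
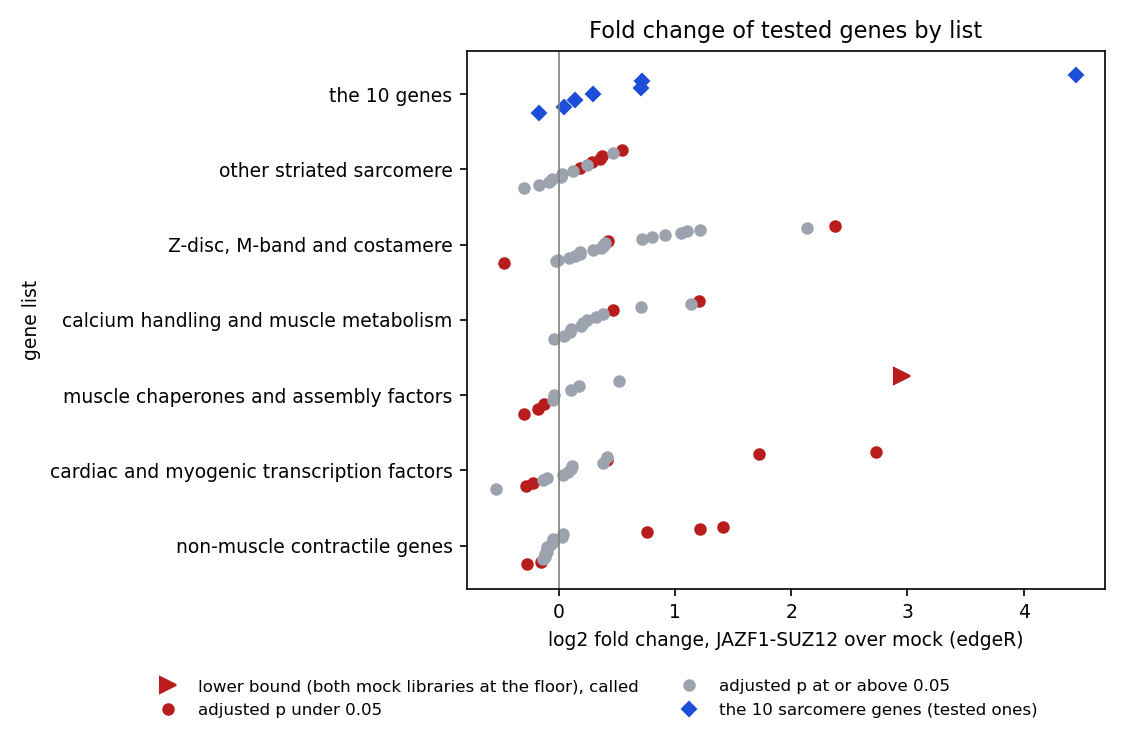
Log2 fold change of JAZF1-SUZ12 over mock for every tested gene of each list, with the 7 tested sarcomere members as blue diamonds, other genes passing an adjusted p of 0.05 in red and FHOD3 drawn at its lower bound as a triangle. MYH6 lies at 4.45, while OBSL1, the highest called gene of the other sarcomere list, lies at 0.54. In other lists PDLIM3 lies at 2.38 and MEF2B at 2.73, and the triangle of FHOD3 marks a fold of at least 7.75.

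Genes beside the members on the chromosome were examined as well. Of 16 distinct neighbours that are not members, 8 were tested and 2 passed, both lower. Over all genes tested 24.7% passed, 11.4% being lower, so nothing is read from this count. NGDN, beyond MYH7, fell from 26.3 ± 0.894 to 21.9 ± 0.593 CPM (SD, n = 2 each; adjusted p = 0.0250 by edgeR). CDC27, beside MYL4, fell by 0.15 on the log2 scale (adjusted p = 0.0474 by edgeR). The values of NGDN and CDC27 under the alternatives were not examined. CMTM5, 2217 bases from MYH6 on its other side, had 7 and 4 counts in mock and 14 in both JAZF1-SUZ12 libraries and did not pass (adjusted p = 0.166 by edgeR).

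Markers of striated muscle cells were largely at or near 0. Of 14 cardiomyocyte markers, 10 had fewer than 10 counts in every library, and MYL2, NKX2-5 and NPPB were at 0 in all 4. Their summed level was 4.45 to 4.74 CPM in mock and 5.91 to 7.78 CPM in JAZF1-SUZ12 libraries, and none of the 3 tested passed. These were RYR2, NPPA and ACTN2, with log2 fold changes of 1.14, 0.95 and 0.14 (adjusted p = 0.0573, 0.359 and 0.765 by edgeR). Of 14 skeletal muscle markers, 12 had fewer than 10 counts in every library, and MYOD1 was at 0. Their summed level, 48.9 to 50.7 CPM in mock and 61.7 to 67.4 CPM in JAZF1-SUZ12 libraries, came mostly from DES and RYR1. Only these 2 were tested, and DES was called, while RYR1 was not (log2 fold change 0.24, adjusted p = 0.0779 by edgeR). In the authors' deposited table RYR1 passed an adjusted p of 0.05, with a log2 value of 0.96. Of 10 smooth muscle markers, MYOCD was at 0, 8 were tested and 4 rose, namely ACTA2, CNN1, LMOD1 and DES. Of all genes tested, 24.7% were called and 13.3% rose. MYH11, TAGLN, SMTN and SYNPO2 did not pass, with log2 fold changes of -0.049, -0.11, -0.10 and 0.30. The call of ACTA2 was lost without JAZF1-SUZ12 replicate 2 or mock replicate 1 and with DESeq2, and that of CNN1 without JAZF1-SUZ12 replicate 1. ACTA2, CNN1, LMOD1 and DES did not pass an adjusted p of 0.05 in the authors' deposited table. The summed level of the smooth muscle markers was 74.5 to 81.2 CPM in mock and 92.4 to 95.4 CPM in JAZF1-SUZ12 libraries. The part of these marker differences in the values of the 10 genes was not tested, and in bulk libraries a change in the share of cells and a change in RNA per cell cannot be told apart.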

How the data were processed

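Poly(A)-selected directional libraries of K562 cells were quantified by the authors as estimated counts per gene. The submitters' processing notes list fastp 0.20.1, kallisto 0.46.2, DESeq2 1.30.1 and hg38. The annotation release and the use of strand are not given in the sources used here. The authors also deposited their comparison, whose columns, per the file headers, are a mean normalized signal, a log2 fold change and its standard error, a test score and a raw and adjusted p-value.

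Estimated counts were rounded to whole numbers. Genes were kept with filterByExpr, scaled by TMM and tested with the quasi-likelihood method of edgeR 4.0.16 in R 4.3.3, two-sided, with group as the only term and Benjamini-Hochberg adjustment over 14750 genes. DESeq2 1.42.0 was an alternative. CPM used the library total. Members failing the filter took their fold change from a fit without it. The SE of each edgeR log2 fold change was derived from the test, as its absolute value divided by the square root of the F statistic. In simulated counts, edgeR recovered 186 of 200 genes changed 2-fold among 14476 tested, with 9 false calls. The changed genes were drawn only from those above a minimum mean count. The recovery therefore does not apply to genes with few counts, such as MYL3, MEF2B, PAX3 and FHOD3. It also does not apply to changes under 2-fold, such as those of HSP90AB1, MYH9, SPEG and NEBL. The simulation changed 200 genes, whereas 3643 were called in the data, so its false calls describe that setting only. Positions, transcript lengths and 31-base stretches came from GENCODE 29 on GRCh38, which matched 35410 of 35606 gene IDs, and promoter windows from RefSeq (GRCh38.p14).

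The members and lists were chosen with earlier results of these data known. All 10 members were named, with up to 4 called genes per direction and the 2 most abundant uncalled genes of each list, JAZF1 as the check of the labels, and neighbours or overlapping genes where they bear on a member. A called gene of the other sarcomere list is counted but not reported here. Intervals and floors cover counting error only.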

Additional observations from a re-analysis of the deposited data

How the results depend on the processing

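The median log2 fold change of the 10 genes, 0.31, lay between 0.24 and 0.34 under other scalings, DESeq2, unrounded counts, a prior of 0.5 CPM and the block, and between 0.23 and 0.36 when 1 library was left out. MYH6 was 4.45 alone and 4.11 summed with MYH7, the summed value ranging from 3.96 to 4.26 when 1 library was left out. Of 100 alternative values of single members, 80 stayed within 1 SD of replicates and 20 moved. The direction turned for TNNT2 in 1 setting and for TTN in 2, and for no other member.

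DESeq2 called 2407 genes in place of 3643, 2 in place of 5 other sarcomere genes and 3 in place of 5 transcription factors. The cause was not tested. With no filter, 4065 genes were called. Fits without 1 library assume that a lone library varies like the other group. Their call counts and the summed MYH6 and MYH7 values were added after the data were seen. They called 2568 to 3782 genes over all, 2 to 6 other sarcomere genes, 4 to 5 of the Z-disc list, 2 to 3 of calcium handling, 2 to 4 chaperones and assembly factors, 2 to 4 transcription factors and 3 to 6 non-muscle contractile genes.

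A replicate block gave 4061 calls, and no list count moved by over 1.5 times. Same-numbered libraries did not deviate together (Pearson r = 0.0025 across 14750 genes, which are not independent replicates), so the numbers were not taken as pairs. Depth limits TNNT2, ACTC1 and MYH7, where a change of few counts sets the fold.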

Other observations

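The listed non-muscle contractile genes, a class that includes the actin and myosin of blood cells, were all abundant enough to test. Of 16, 3 rose, 2 fell and 11 did not pass, with a median log2 fold change of -0.082. The share called was 31.25%, against 24.7% of all genes tested. MYH14, a non-muscle myosin heavy chain, rose from 4.37 ± 0.653 to 11.9 ± 1.41 CPM (SD, n = 2 each), or 1.42 in log2 units (adjusted p = 2.58e-05 by edgeR). LMOD1, a smooth muscle actin nucleator, rose by 0.76 and CALD1, which encodes caldesmon, rose by 1.22 (adjusted p = 0.00555 and 0.0304 by edgeR). LMOD1 is also counted among the smooth muscle markers above. ACTB, the cytoplasmic beta-actin, fell from 2173 ± 124 to 1824 ± 27.1 CPM (SD, n = 2 each; adjusted p = 0.000329 by edgeR). MYH9, the main non-muscle heavy chain, fell by 0.16 on the log2 scale (adjusted p = 0.0256 by edgeR). MYH9 was not called without JAZF1-SUZ12 replicate 2 or without mock replicate 2 (adjusted p = 0.0767 and 0.187 by edgeR), and 3 genes of the list were called in each of these fits. CALD1 was called without mock replicate 1 only, among the 4 fits that left out a library, and not by DESeq2 (adjusted p = 0.103). ACTG1 and ACTN4 had log2 fold changes of -0.049 and -0.12 (adjusted p = 0.439 and 0.0641 by edgeR). MYH14 and ACTB also passed an adjusted p of 0.05 in the authors' deposited table, whereas LMOD1, CALD1 and MYH9 did not.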
